A study of Mus musculus with 9 samples.

Results

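Pax3, Pax7, Msx1, Msx2, Foxd3, Tfap2a, Tfap2b, Tfap2c, Snai1 and Snai2 encode the transcription factors that specify the neural crest. They are 10 of 18193 genes named by the array's annotation, and were measured by 21 probe sets, all those annotated to exactly one of them, of 34945 probe sets with 1 gene symbol. RNA came from mouse cells that the submitters took by laser capture as neural crest cells or their descendants, and each sample was hybridised to 1 Affymetrix mouse array. The E8.5 samples were taken from embryos during closure of the neural tube, the E13.5 samples from dorsal root ganglia of embryos, and the P90 samples from the adrenal medulla of adult mice of 3 months, with 3 arrays at each stage. No strain, allele, transgene or treatment is named in the labels for any of the 9 samples, and neither is the number of animals behind a capture. The labels call the samples biological replicates, so p-values measure the spread between these samples. Stage and tissue changed together and cannot be told apart.

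The neural crest arises at the border of the neural plate. Wnt, bone morphogenetic protein and fibroblast growth factor signals switch on border factors there, among them the paired box factors Pax3 and Pax7, the homeobox factors Msx1 and Msx2 and the AP-2 factor Tfap2a. These act on crest specifiers such as the forkhead factor Foxd3 and the zinc finger repressors Snai1 and Snai2, and the cells then leave the neural tube and form sensory neurons, glia, chromaffin cells and other derivatives.

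Of the 21 probe sets, 18 were bright enough to be tested, that is, 3 or more of the 9 arrays read above 26.1 and each stage had 2 or more values. Among these 18, 14 passed that signal on at least 1 array of every stage and 4 on arrays of 2 stages. The mean log2 value was highest at E8.5 for 13 of the 18, at E13.5 for 4 and at P90 for 1, against 38.7%, 27.7% and 33.6% of all 24013 probe sets tested. A limma F-test found a difference between stages, at an adjusted p under 0.05, for 9 of the 18 (7 genes), against 23.3% of all probe sets tested.

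Between E8.5 and E13.5, 7 of the 18 probe sets fell and 0 rose (limma, adjusted p under 0.05), while 6.98% of all tested probe sets fell and 7.99% rose (15.0% together). These 7 belong to Pax3, Msx1 (2 probe sets), Msx2, Foxd3, Tfap2b and Tfap2c. The median log2 change was -1.16 for the 18, against -0.005 for all tested. For 11 of the 18 every E13.5 array lay below every E8.5 array, against 17.2% of all tested. Between E13.5 and P90, 2 probe sets of Tfap2a fell and 0 rose, against 4.60% and 2.88% of all tested (7.48% together), and the median log2 change was -0.03. In 5 of the 18 the P90 arrays lay wholly below the E13.5 arrays and in 3 wholly above, against 12.5% and 2403 of the 24013 tested. Between E8.5 and P90, 6 probe sets fell and 0 rose, against 11.2% and 9.57% of all tested (20.8% together), with a median of -0.68; they belong to Pax3, Msx1, Foxd3, Tfap2a (2 probe sets) and Tfap2c. P90 lay wholly below E8.5 for 9 of the 18 and wholly above for 0, against 23.2% and 19.8% of all tested. At an unadjusted p under 0.05 in limma, 11 of the 18 were lower and 0 higher in the first comparison (13.4% and 13.9% of all tested), 3 and 3 in the second (11.2% and 8.41%) and 8 and 0 in the last (17.9% and 15.8%). The 3 that were higher in the second are 1438351_at of Msx2 and both probe sets of Tfap2b. Leaving out 1 array at a time gave 4 to 8 calls in the first comparison (4 without replicate 2 or 3 of E8.5 or replicate 1 or 3 of E13.5), 0 to 4 in the second (0 without E13.5 replicate 3, 4 without P90 replicate 1) and 6 to 7 in the last. Of all tested probe sets, 8.16% to 17.8%, 3.46% to 10.6% and 12.7% to 26.2% were then called. The 0 came with the lowest of these shares in the second comparison (3.46%). The 3 comparisons share arrays and are not independent of each other. In such bulk samples, fewer cells of a type and less RNA per cell cannot be told apart.

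**Figure D1:**
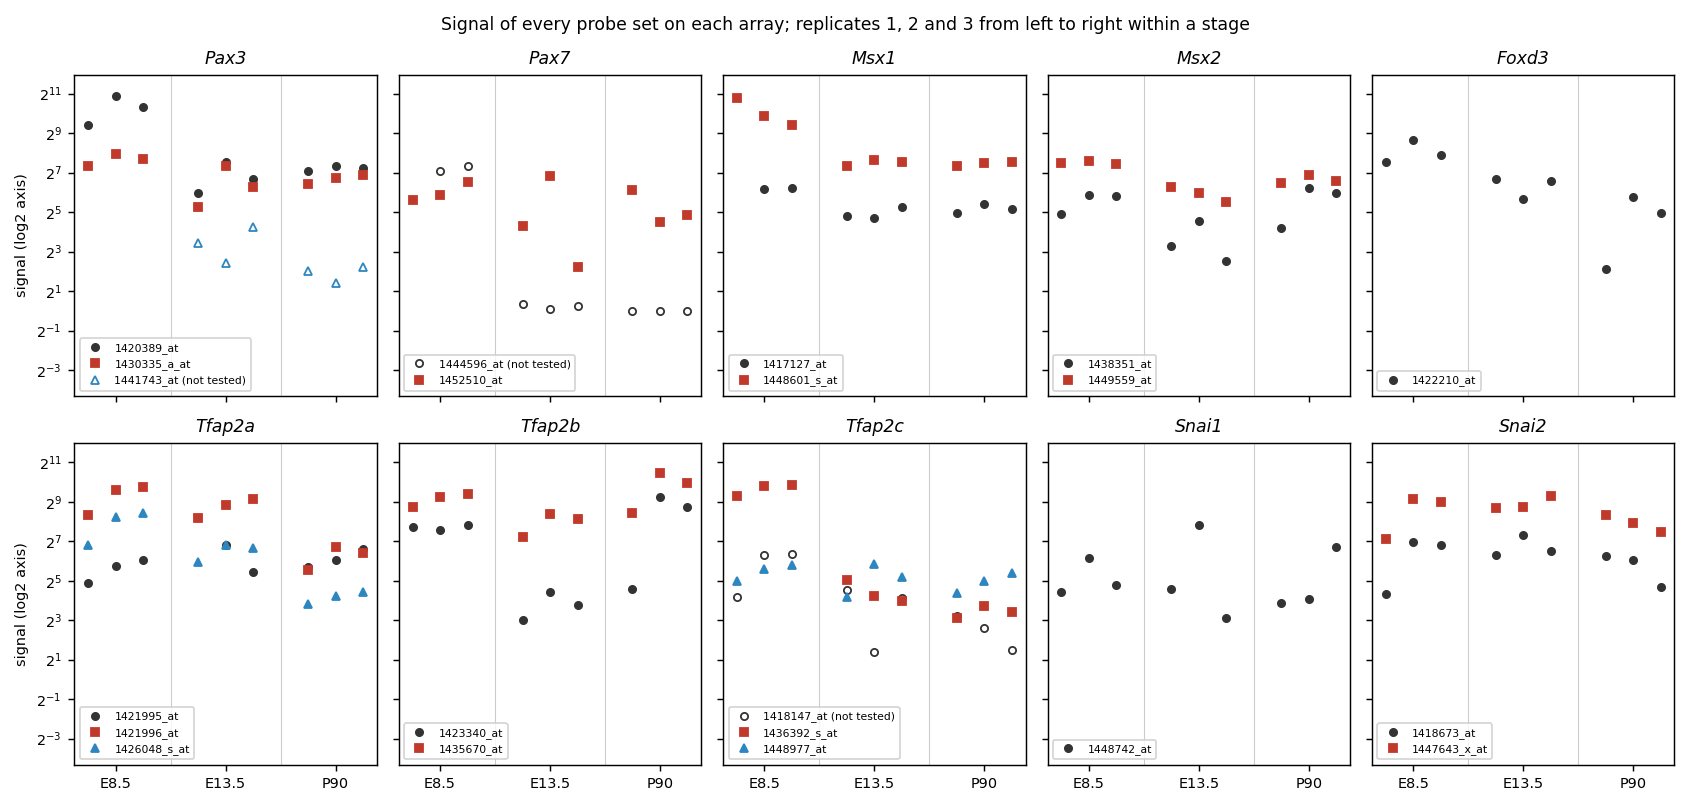
Signal of each of the 21 probe sets (log2 axis) on each of the 9 arrays, by gene, with replicates 1, 2 and 3 from left to right within a stage; open symbols mark the 3 probe sets that were not tested and empty values are not drawn. The probe sets of Pax3, Msx1 and Tfap2c with the highest signal were high on all 3 E8.5 arrays and low on all others, while Tfap2b was high again on P90 replicates 2 and 3.

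Arrays of one stage were not equally alike. Over all tested probe sets, log2 values correlated at 0.983 between E8.5 replicates 2 and 3 but at 0.928 and 0.929 with replicate 1. At P90, replicates 2 and 3 correlated at 0.973, and replicate 1 with them at 0.868 and 0.879. At E13.5, replicates 1 and 2 correlated at 0.803, 2 and 3 at 0.911, and 1 and 3 at 0.934. The gap between Actb 3′ and 5′ controls, which widens as RNA is shortened, ran from 0.85 to 6.69 on the log2 scale, with the highest value on E13.5 replicate 2. In replicate order it was 4.70, 2.04 and 2.38 at E8.5 and 1.36, 4.03 and 3.47 at P90. P90 replicate 1 thus had the smallest gap of its stage. Results below were also computed without 3 arrays that stand apart, a choice made after the data were seen. These are E8.5 replicate 1 and P90 replicate 1, apart by correlation, and E13.5 replicate 2, apart by this gap. The 3 comparisons then had 12, 7 and 11 called probe sets of the 10 genes, where 3 of the 7 and 1 of the 11 were higher. Calls over all tested probe sets grew as well, to 25.4%, 27.8% and 36.2%, and the F-test then called 45.8%. Defining markers differed by stage. Wnt1, which the dorsal neural tube secretes, read 433, 423 and 585 at E8.5 and at most 10.7 on the other 6 arrays. Isl1, a factor of sensory and sympathetic neurons, read 12.5 to 149 at E8.5, 3153 to 5244 at E13.5 and 88.9, 1876 and 1420 at P90. Its difference between E13.5 and P90 was not called (limma adjusted p = 0.148). Dbh, an enzyme of noradrenaline synthesis, read 305, 2172 and 2072 at P90. No probe set of Pou4f1, a sensory neuron factor, or of Star, a protein of the adrenal cortex, was tested; those of Star were empty on all P90 arrays and 1 of Pou4f1 on all E13.5 arrays. Other adrenal cortex markers are given with Tfap2b. Epithelial and somite markers were also present at E8.5: Krt8, a keratin of simple epithelia, read 353, 1041 and 1188, and Meox1, a somite factor, was empty, 1288 and 1226.

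The paired box factors came first in the order of action. Pax3 (chr1:78101267-78197136, GRCm38.p6) patterns the dorsal neural tube and is required for crest formation. Its probe set 1420389_at read 671, 1882 and 1297 at E8.5, then 63.2, 186 and 101 at E13.5, and 137, 162 and 148 at P90. All 3 E8.5 arrays lay above all others, and the E13.5 and P90 arrays overlapped. Mean signals were 1283 ± 605, 117 ± 63.1 and 149 ± 12.5 (SD, n = 3 each). Pax3 fell by 3.28 on the log2 scale between E8.5 and E13.5 (SE 0.46, 95% interval -4.29 to -2.26, 9.7-fold, limma adjusted p = 0.000999). Here and below, changes are of log2(signal + 16), which understates the change of dim probe sets. From E13.5 to P90 the log2 difference was 0.42 ± 0.46 (SE, 95% interval -0.59 to 1.43, adjusted p = 0.703), and P90 remained 7.25-fold below E8.5 (adjusted p = 0.00148).

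A second Pax3 probe set, 1430335_a_at, read 160.1, 250.02 and 205 at E8.5, 38.0, 159 and 77.5 at E13.5 and 84.4, 105 and 116 at P90. The E8.5 arrays again lay above the others, with the lowest of them barely above E13.5 replicate 2. Its change between E8.5 and E13.5, -1.18 ± 0.41 (SE), had an adjusted p of 0.0793 and did not pass. Without E13.5 replicate 2 the adjusted p was 0.0102. The third, 1441743_at, was empty on all 3 E8.5 arrays and read 5.41 to 19.1 at E13.5 and 2.63 to 4.72 at P90, so that it gives no comparison with E8.5.

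Pax7 (chr4:139737059-139833530), the closest relative of Pax3, marks the neural folds and later muscle progenitors. Probe set 1444596_at was empty on E8.5 replicate 1 and read 137 and 160.05 on replicates 2 and 3. On the E13.5 arrays it read 1.28, 1.06 and 1.17, and on all 3 P90 arrays it stood at 1, the lowest value in the table. It passed the signal of 26.1 on the 2 measured E8.5 arrays and was not among the tested probe sets. With no filter on level, the log2 change from E8.5 to E13.5 was -3.26 ± 0.14 (SE, 2 arrays against 3, limma adjusted p = 5.75e-05). The tested probe set, 1452510_at, read 48.5, 58.2 and 92.4 at E8.5, 19.7, 113 and 4.59 at E13.5 and 68.6, 23.0 and 28.7 at P90. All 3 stages overlapped, and E13.5 replicate 2 held the highest value of the 9. Its change from E8.5 to E13.5 was -0.82 ± 0.57 (SE, 95% interval -2.07 to 0.44, adjusted p = 0.409). Without E13.5 replicate 2 it was called (adjusted p = 0.0217).

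Msx1 and Msx2 are homeobox repressors induced by bone morphogenetic proteins at the dorsal midline. For Msx1 (chr5:37820491-37824585), probe set 1448601_s_at read 1729, 933 and 685 at E8.5, 159, 201 and 183 at E13.5 and 161, 181 and 186 at P90. The E8.5 arrays did not overlap the others, and the 6 later arrays lay within 159 to 201. Means were 1116 ± 546, 181 ± 21.4 and 176 ± 13.2 (SD, n = 3 each). Msx1 fell by 2.42 between E8.5 and E13.5 on the log2 scale (SE 0.39, 5.35-fold, limma adjusted p = 0.00205). From E13.5 to P90 the difference was -0.04 ± 0.39 (SE, 95% interval -0.89 to 0.82), and P90 lay 5.49-fold below E8.5 (adjusted p = 0.00131). The suffix _s_at marks probes shared by several transcripts. Probe set 1417127_at was empty on E8.5 replicate 1 and read 70.9 and 74.1 on the other E8.5 arrays, 25.7 to 38.4 at E13.5 and 31.3 to 43.1 at P90. It fell between E8.5 and E13.5 (-0.93 ± 0.26 SE on the log2 scale, 2 arrays against 3, adjusted p = 0.0362), a call that was lost when any of 7 arrays was left out, with an adjusted p of up to 0.157: E8.5 replicates 2 and 3, all 3 E13.5 arrays and P90 replicates 2 and 3.

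For Msx2 (chr13:53466881-53472780), probe set 1449559_at read 178, 193 and 171 at E8.5, 78.0, 61.6 and 46.1 at E13.5 and 87.5, 116 and 95.7 at P90. No stage overlapped another, with E13.5 lowest and P90 between. It fell by 1.35 between E8.5 and E13.5 on the log2 scale (SE 0.27, 2.55-fold, limma adjusted p = 0.00734). The later difference of 0.59 ± 0.27 (SE, 95% interval -0.02 to 1.19) did not pass, with an adjusted p of 0.273. Its counterpart 1438351_at read 29.7, 57.8 and 57.0 at E8.5, 9.83, 23.6 and 5.76 at E13.5 and 18.2, 74.5 and 61.9 at P90. E13.5 was again the lowest stage, and P90 replicate 1 lay within the E13.5 range. Neither of its neighbouring changes passed (-1.16 ± 0.39 SE, adjusted p = 0.0705, and 1.15 ± 0.39 SE, adjusted p = 0.113). The fall was called without E13.5 replicate 2 or without P90 replicate 1 (adjusted p = 0.0412 and 0.0206), and the later rise without P90 replicate 1 (adjusted p = 0.0151).

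Foxd3 (chr4:99656299-99658671) keeps crest progenitors undifferentiated and is later used by glial cells. Its probe set 1422210_at read 184, 407 and 237 at E8.5, 101, 50.1 and 96.5 at E13.5 and 4.36, 54.1 and 30.6 at P90. Every E8.5 array lay above every later one, and E13.5 and P90 overlapped through P90 replicate 2. Means were 276 ± 117, 82.4 ± 28.02 and 29.7 ± 24.9 (SD, n = 3 each). Foxd3 was 6.85-fold lower at P90 than at E8.5 (log2 change -2.78 ± 0.47 SE, limma adjusted p = 0.00189), a call that held in all 24 alternatives. The fall from E8.5 to E13.5 was 2.91-fold (log2 change -1.54 ± 0.47 SE, 95% interval -2.57 to -0.51) with an adjusted p of 0.048. It was lost in 12 of 24 alternatives, among them the omission of P90 replicate 3 or of any array of the 2 embryonic stages, over which the adjusted p reached 0.183. The step from E13.5 to P90, -1.23 ± 0.47 (SE), had an adjusted p of 0.162. On the same arrays 7 glial markers, a list that holds Foxd3 itself, summed to 989 to 1331 at E8.5, 2720 to 7929 at E13.5 and 386 to 1428 at P90. Of these 7, 4 others rose from E8.5 to E13.5 and 4 fell from E13.5 to P90, and their part in the Foxd3 values was not tested.

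**Figure D2:**
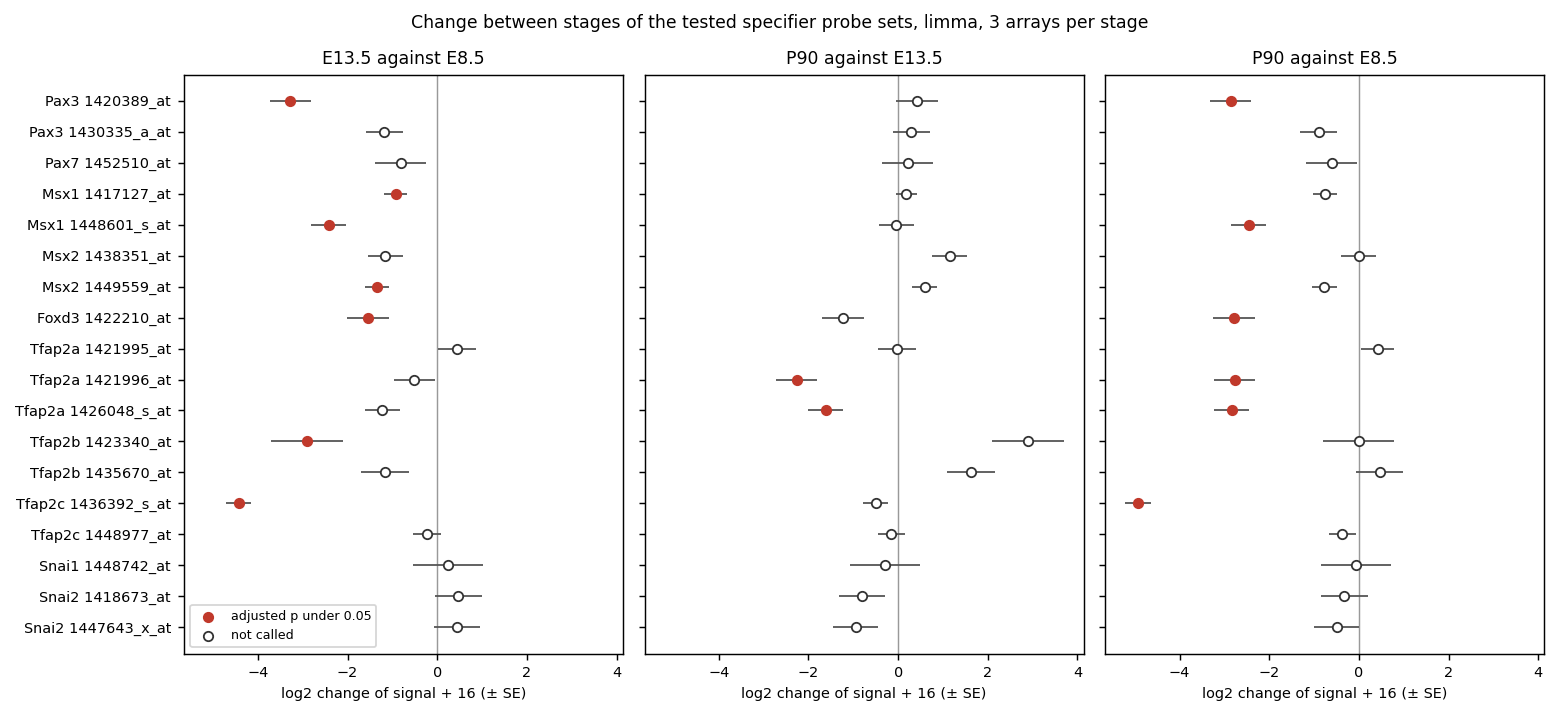
Log2 change of signal + 16 of the 18 tested probe sets in each of the 3 comparisons of stages, 3 arrays per stage; points are limma estimates, bars their standard errors, and filled points have an adjusted p under 0.05. All filled points lie left of 0: 7 at E13.5 against E8.5, 2 at P90 against E13.5 and 6 at P90 against E8.5.

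Start sites of these genes were read from RefSeq, GRCm38.p6, as the 250 bases before an annotated start on the gene's own strand. Of the 10 genes, 7 matched the promoter table. The windows of Tfap2b, Pax7 and Tfap2a lie inside the loci given for these genes, before internal start sites. Bases before the outer ends of those loci were not read. Shown are Msx1, Msx2 and Foxd3, which were highest at E8.5, Tfap2b, whose probe set with the highest signal was highest at P90, and Snai1, which had no called change. Capitals mark matches to 4 motifs searched on both strands: the Snail E-box CAGGTG, the AP-2 site GCCNNNGGC, the paired domain core GTCACGC and the homeodomain core TAATTA.
Msx1, chr5:37824586-37824835, minus strand: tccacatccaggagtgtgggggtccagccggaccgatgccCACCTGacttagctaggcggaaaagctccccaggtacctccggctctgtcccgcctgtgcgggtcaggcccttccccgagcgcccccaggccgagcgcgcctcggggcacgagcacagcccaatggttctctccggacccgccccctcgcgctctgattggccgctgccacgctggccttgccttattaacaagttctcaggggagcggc
Msx2, chr13:53472781-53473030, minus strand: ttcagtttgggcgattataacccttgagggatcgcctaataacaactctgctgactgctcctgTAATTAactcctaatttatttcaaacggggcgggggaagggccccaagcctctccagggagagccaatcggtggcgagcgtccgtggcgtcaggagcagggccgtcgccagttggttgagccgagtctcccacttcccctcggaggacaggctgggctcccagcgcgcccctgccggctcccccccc
Foxd3, chr4:99656049-99656298, plus strand: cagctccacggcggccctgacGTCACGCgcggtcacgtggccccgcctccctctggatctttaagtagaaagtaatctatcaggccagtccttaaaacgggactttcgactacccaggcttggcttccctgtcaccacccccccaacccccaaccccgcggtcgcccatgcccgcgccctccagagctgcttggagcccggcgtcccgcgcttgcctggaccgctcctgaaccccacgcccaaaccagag
Tfap2b, chr1:19211804-19212053, plus strand: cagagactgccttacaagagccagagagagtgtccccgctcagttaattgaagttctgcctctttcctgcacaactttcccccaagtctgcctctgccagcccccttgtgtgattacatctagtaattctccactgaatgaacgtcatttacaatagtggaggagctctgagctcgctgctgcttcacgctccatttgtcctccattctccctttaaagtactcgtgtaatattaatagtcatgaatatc
Snai1, chr2:167537945-167538194, plus strand: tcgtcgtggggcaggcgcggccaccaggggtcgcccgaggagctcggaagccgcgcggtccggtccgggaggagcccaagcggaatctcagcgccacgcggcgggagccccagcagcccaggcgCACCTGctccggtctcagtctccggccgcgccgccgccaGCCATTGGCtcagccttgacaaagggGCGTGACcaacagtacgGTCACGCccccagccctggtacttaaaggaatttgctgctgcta
The Msx1 window held 1 Snail E-box, read as its reverse complement CACCTG, which begins 210 bases before the start. The Msx2 window held 1 homeodomain core, beginning at 187 bases, and the Foxd3 window 1 paired domain core, beginning at 229 bases. No letters of the 4 motifs were found in the Tfap2b window. The Snai1 window held 4 matches, an E-box beginning at 126 bases, an AP-2 site at 87 and paired domain cores at 61 and 44. Of the genes not shown, Pax7 had 0 matches and Tfap2a, with 2 start sites, 1 homeodomain core beginning 32 bases before one of them and 0 before the other. Of 32851 promoters of this length, 17.2% held the E-box, 13.7% the AP-2 site, 1.78% the paired domain core and 4.84% the homeodomain core. The windows of Foxd3, Msx1, Msx2, Tfap2b and Snai1 held 21, 20, 16, 5 and 27 CpG dinucleotides, that of Pax7 13 and each of Tfap2a 10, where the median of all promoters was 6 and the upper quartile 16. A match is a description of letters and not a binding site.

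The AP-2 factors differed from one another. Tfap2a (chr13:40713802-40738238) acts at the neural plate border and in surface ectoderm. Its probe set 1421996_at read 325, 782 and 856 at E8.5, 287, 454 and 558 at E13.5 and 46.5, 104 and 83.5 at P90. E8.5 and E13.5 overlapped, and all 3 P90 arrays lay below both. Means were 655 ± 287, 433 ± 137 and 78.0 ± 29.2 (SD, n = 3 each). Between E8.5 and E13.5 the log2 difference was -0.51 ± 0.46 (SE, 95% interval -1.53 to 0.5, limma adjusted p = 0.536). Between E13.5 and P90 Tfap2a fell 4.78-fold (log2 change -2.26 ± 0.46 SE, adjusted p = 0.0127); without E13.5 replicate 3 the adjusted p was 0.0702. Against E8.5 the P90 level was 6.83-fold lower (adjusted p = 0.00174).

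The second Tfap2a probe set, 1426048_s_at, read 114, 296 and 342 at E8.5, 60.9, 112 and 99.3 at E13.5 and 14.2, 19.0 and 21.4 at P90. No stage overlapped another, in the order E8.5, E13.5, P90. It fell 3.06-fold from E13.5 to P90 (log2 change -1.62 ± 0.39 SE, limma adjusted p = 0.0279) and was 7.17-fold lower at P90 than at E8.5 (adjusted p = 0.000531). The fall from E13.5 was lost without E13.5 replicate 2 or 3 or any P90 array, with an adjusted p of 0.0548 to 0.121. Its first step, -1.23 ± 0.39 (SE), had an adjusted p of 0.0569, and of 0.00801 without E8.5 replicate 1. The third, 1421995_at, was empty on E13.5 replicate 1, read 30.0 to 114 elsewhere with overlap of all stages, and was not called in any comparison (adjusted p = 0.475 to 0.987).

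Tfap2b (chr1:19208908-19238845) is the AP-2 factor of sympathetic and chromaffin cells as well as of crest. Probe set 1435670_at read 429.8, 609 and 674 at E8.5, 148, 331 and 282 at E13.5 and 339, 1399 and 985 at P90. The E13.5 arrays lay below all others, and P90 overlapped E8.5 through replicate 1. Means were 571 ± 126, 254 ± 94.7 and 908 ± 534 (SD, n = 3 each). The log2 difference of P90 from E13.5 was 1.63 ± 0.53 (SE, 95% interval 0.46 to 2.79, limma adjusted p = 0.0999), which did not pass; without P90 replicate 1 the adjusted p was 0.0131, and 4 of 24 alternatives called the rise. The difference of E13.5 from E8.5 was -1.17 ± 0.53 (SE, adjusted p = 0.183).

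The other Tfap2b probe set, 1423340_at, read 212, 190.3 and 223 at E8.5, 7.97, 21.6 and 13.8 at E13.5 and 23.7, 609 and 429 at P90. Again E13.5 was below every other array, while P90 replicate 1 stood near E13.5 and replicates 2 and 3 above E8.5. It fell 7.47-fold from E8.5 to E13.5 (log2 change -2.9 ± 0.8 SE, 95% interval -4.67 to -1.14, limma adjusted p = 0.033). Omitting replicate 1 or 3 of E13.5, or any array of E8.5, ended that call, with an adjusted p of 0.0744 to 0.097. From E13.5 to P90 the difference was 2.89 ± 0.8 (SE) with an adjusted p of 0.0537, and 0.000103 without P90 replicate 1; 6 of 23 alternatives called it. P90 against E8.5 gave -0.01 ± 0.8 (SE, adjusted p = 0.996). Without P90 replicate 1 this became 1.24 ± 0.33 (SE, adjusted p = 0.0209), so that the direction at P90 rests on that array. On the same arrays, the summed signal of 7 chromaffin cell markers without empty values was 456, 479 and 465 at E8.5, 4053, 1487 and 1890.1 at E13.5 and 12771, 26247 and 25234 at P90. That of 7 endothelial markers was 4759, 943 and 1157 at P90. Kdr alone gave 2728, 123 and 180 of these sums. Flt1, Esam and Cdh5 were, like Kdr, highest on replicate 1. Egfl7 was highest on replicate 3 (322, 52.9 and 367), and so was Pecam1, which was not tested (24.0, 22.0 and 44.7). Of 8 tested chromaffin markers, 7 rose from E13.5 to P90, and their part in the Tfap2b result was not tested. Of 6 tested adrenal cortex markers, Scarb1 (log2 change 3.97, with P90 replicate 3 empty) and Fdx1 (3.58) rose from E13.5 to P90. The sum of the 2 without empty values, Fdx1 and Cyp11a1, was 99.6 to 198 at E8.5, 201 to 1144 at E13.5 and 8246, 4813 and 4168 at P90, highest on P90 replicate 1. Nearly all of it was Fdx1, a ferredoxin of steroid synthesis. The tested probe set of Cyp11a1, the enzyme that starts that synthesis, read 73.2, 26.2 and 16.3 at P90. It was dim on the embryonic arrays as well (26.3 to 41.0). Another Cyp11a1 probe set was empty on all P90 arrays, and so were the cortex markers Hsd3b1 and Cyp11b1 and a probe set of Cyp21a1. The other of Cyp21a1 had a value only on P90 replicate 3 (118). Empty values give no level of these enzymes at P90. The part of cortex cells was not tested either.

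Tfap2c (chr2:172545678-172558622) is expressed in early ectoderm and germ cells. Its probe set 1436392_s_at read 629, 880.5 and 928 at E8.5, 33.2, 19.0 and 15.7 at E13.5 and 8.71, 13.1 and 10.6 at P90. No stage overlapped another, and the lowest E8.5 array was far above every later one. Means were 813 ± 161, 22.6 ± 9.32 and 10.8 ± 2.23 (SD, n = 3 each). Tfap2c fell 21.6-fold from E8.5 to E13.5 (log2 change -4.43 ± 0.28 SE, limma adjusted p = 2.17e-05) and was 30.6-fold lower at P90 than at E8.5 (adjusted p = 6.45e-06). The step from E13.5 to P90 was -0.5 ± 0.28 (SE, adjusted p = 0.373), with both stages near or below the signal of 26.1.

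Other Tfap2c probe sets did not show this size of change. Probe set 1448977_at read 31.8, 47.8 and 54.8 at E8.5, 18.4, 58.2 and 36.9 at E13.5 and 20.5, 31.1 and 41.7 at P90. All stages overlapped, and its change from E8.5 to E13.5 was -0.23 ± 0.31 (SE, 95% interval -0.92 to 0.47, limma adjusted p = 0.715). The dim 1418147_at read 17.9, 78.5 and 80.5 at E8.5, 2.62 to 22.8 at E13.5 and 2.78 to 9.28 at P90, and was not among the tested probe sets. With no filter on level its log2 change was -1.23 ± 0.41 (SE, adjusted p = 0.106) from E8.5 to E13.5 and -1.63 ± 0.41 (SE, adjusted p = 0.0296) from E8.5 to P90.

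Some lists of other cell types were higher at E8.5 in their sums, like the probe sets that were highest at E8.5. The summed signal of 8 surface ectoderm and epithelial markers without empty values was 1359, 2955 and 3342 at E8.5, 589.7 to 678 at E13.5 and 577 to 617 at P90. Of 10 tested, 4 fell between E8.5 and E13.5 (Krt18, Krt8, Cldn6 and Epcam) and 0 rose. Of 6 neural tube markers, summed at 4291 to 5234 at E8.5 and 985 to 2406 later, 4 fell and 0 rose. The 4 tested markers of germ cells and pluripotency summed to 514 to 769 at E8.5 and 96.4 to 183 later, and Sall4 and Lin28a among them fell. Somite and muscle markers, 6 summed, gave 963 to 1507 at E8.5, 672 to 866 at E13.5 and 296 to 465 at P90; of 7 tested, Myf5 fell, Actc1 rose and 5 were not called between E8.5 and E13.5 (median log2 change -0.05). Tfap2a, Tfap2c, Msx1, Pax3 and Pax7 are also used in one or more of these tissues, and the part of those cells in the falls was not tested. The epithelial sum was lower on E8.5 replicate 1 than on replicates 2 and 3, though Grhl2, Grhl3 and Krt5 of that list were lowest on replicate 2. By the tested probe set with the highest signal, Tfap2a, Tfap2c, Pax3, Pax7, Foxd3, Tfap2b, Snai1 and Snai2 were lowest on replicate 1 too. Msx1 was highest there and Msx2 lay between the other replicates. The neural tube sum was highest on replicate 1 (5234, against 4291 and 4607). That array also had the widest Actb gap of its stage (4.70).

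**Figure D3:**
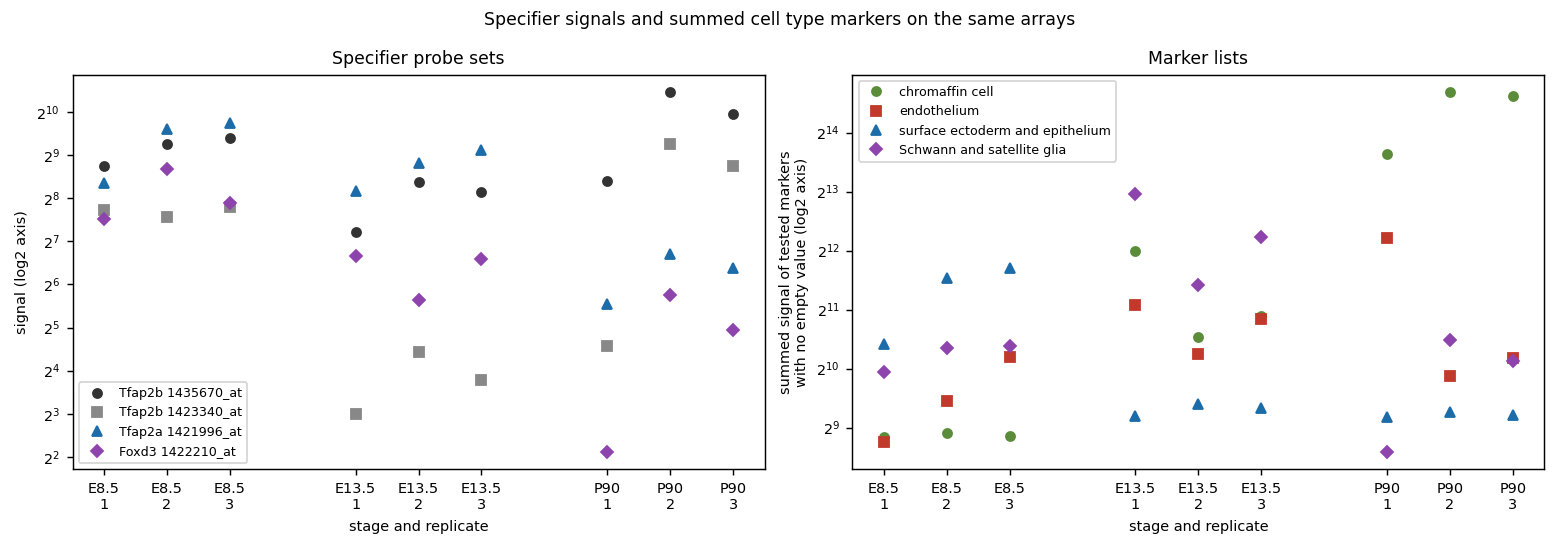
Left, signals (log2 axis) of 4 probe sets of Tfap2b, Tfap2a and Foxd3 on each array; right, summed signals (log2 axis) of 4 marker lists on the same arrays, where the glial list includes Foxd3. P90 replicate 1 had the lowest Tfap2b and Foxd3 signals and the highest endothelial sum of its stage (4759 against 943 and 1157). Kdr alone gave 2728 of the 4759.

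The Snail repressors showed no called change over the 9 arrays, nor an unadjusted p under 0.05 in limma. Without the 3 arrays that stand apart, Snai2 was called lower at P90: 1447643_x_at against E13.5 and E8.5 (adjusted p = 0.0258 and 0.0136) and 1418673_at against E8.5 (adjusted p = 0.0192). Snai1 (chr2:167538195-167542814) drives loss of epithelial adhesion. Its probe set 1448742_at read 21.8, 72.1 and 27.5 at E8.5, 23.9, 223 and 8.52 at E13.5 and 14.6, 17.1 and 106 at P90. One array stood high at every stage and all stages overlapped. The log2 change from E8.5 to E13.5 was 0.23 ± 0.78 (SE, 95% interval -1.48 to 1.94, limma adjusted p = 0.898), an interval that leaves room for more than a 2-fold change either way. From E13.5 to P90 it was -0.3 (95% interval -2.02 to 1.41, adjusted p = 0.893).

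Snai2 (chr16:14705852-14709395), formerly Slug, is the Snail factor of migrating crest. Probe set 1447643_x_at read 138, 568 and 509.9 at E8.5, 408, 423 and 624 at E13.5 and 322, 241 and 176 at P90. Every P90 array lay below every E13.5 array, and E8.5 spanned both. The difference of P90 from E13.5 was -0.95 ± 0.51 (SE, 95% interval -2.08 to 0.18, limma adjusted p = 0.361) and did not pass. Probe set 1418673_at had the same layout, with 20.4, 125 and 110.5 at E8.5, 78.5, 157 and 90.002 at E13.5 and 77.2, 67.0 and 25.8 at P90. Its difference of P90 from E13.5 was -0.81 ± 0.52 (SE, adjusted p = 0.453). E8.5 replicate 1 was the lowest E8.5 array for both probe sets. Mesenchyme markers, 8 summed, gave 2469 to 3210 at E8.5, 4987 to 14734 at E13.5 and 1717 to 6392 at P90, and their part was not tested. The suffix _x_at marks probes that may match other sequences.

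Paralogues were compared within each array, each gene by its brightest tested probe set. Array-wide scale then cancels for signals well above the added 16. It does not for dim ones, such as Tfap2c at E13.5 and P90 (8.71 to 33.2) or Pax7 (down to 4.59). The values are differences of log2(signal + 16), and their change over stages, not levels, is the result. In an exact permutation test of the 9 arrays (two-sided by construction of F, smallest possible p = 0.00357), 5 of 6 pairs changed unequally after Benjamini-Hochberg adjustment over the 6. With a pseudocount of 1 the count was 4 of 6. The pairs among Tfap2a, Tfap2b and Tfap2c reuse the same probe sets and are not independent. No share over other pairs of probe sets was computed, here or for the pairs of one gene below. Whether such counts are particular to these pairs was therefore not tested. Tfap2a minus Tfap2b, in stage order, was 0.10 ± 0.42, 0.75 ± 0.28 and -3.13 ± 0.55 (SD, n = 3; exact permutation p = 0.00357, adjusted p = 0.00536). Tfap2b minus Tfap2c went from -0.5 ± 0.04 through 2.76 ± 0.89 to 4.89 ± 0.93 (same p-values by the exact permutation test). Tfap2a minus Tfap2c was -0.4 ± 0.45, 3.52 ± 0.8 and 1.76 ± 0.37, again with these p-values. The test covers all 3 stages at once and does not place a change between 2 of them.

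Msx1 minus Msx2 was 2.42 ± 0.66, 1.35 ± 0.41 and 0.73 ± 0.14 over the same stages (exact permutation p = 0.00357, adjusted p = 0.00536). This rests on Msx1 1448601_s_at. The dimmer 1417127_at changed by -0.93 from E8.5 to E13.5, less than the -1.35 of Msx2 1449559_at, and was not set against Msx2. Pax3 minus Pax7 was 3.9 ± 0.68, 1.43 ± 0.96 and 1.64 ± 0.7 (exact permutation p = 0.0321, adjusted p = 0.0386). This rests on Pax7 1452510_at. The untested 1444596_at changed by -3.26 from E8.5 to E13.5, where Pax3 changed by -3.28. Its E13.5 signals of 1.06 to 1.28 lie far below the added 16, so that -3.26 understates its fall. Mean signals went from 148 (2 arrays) to 1.17 for this probe set and from 1283 to 117 for Pax3. Snai1 minus Snai2, at -2.78 ± 0.78, -3.0 ± 1.95 and -2.36 ± 1.5, gave an exact permutation p of 0.861. Probe sets of one gene were set against each other in the same way. In 3 of 8 pairs they changed unequally after adjustment over the 8: 1420389_at and 1430335_a_at of Pax3, 1448601_s_at and 1417127_at of Msx1, and 1421996_at and 1421995_at of Tfap2a (adjusted exact permutation p = 0.0381 for each). Leaving out any one of 6 arrays (all 3 of E8.5, E13.5 replicate 2, P90 replicates 2 and 3) brought that count to 0.

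**Figure D4:**
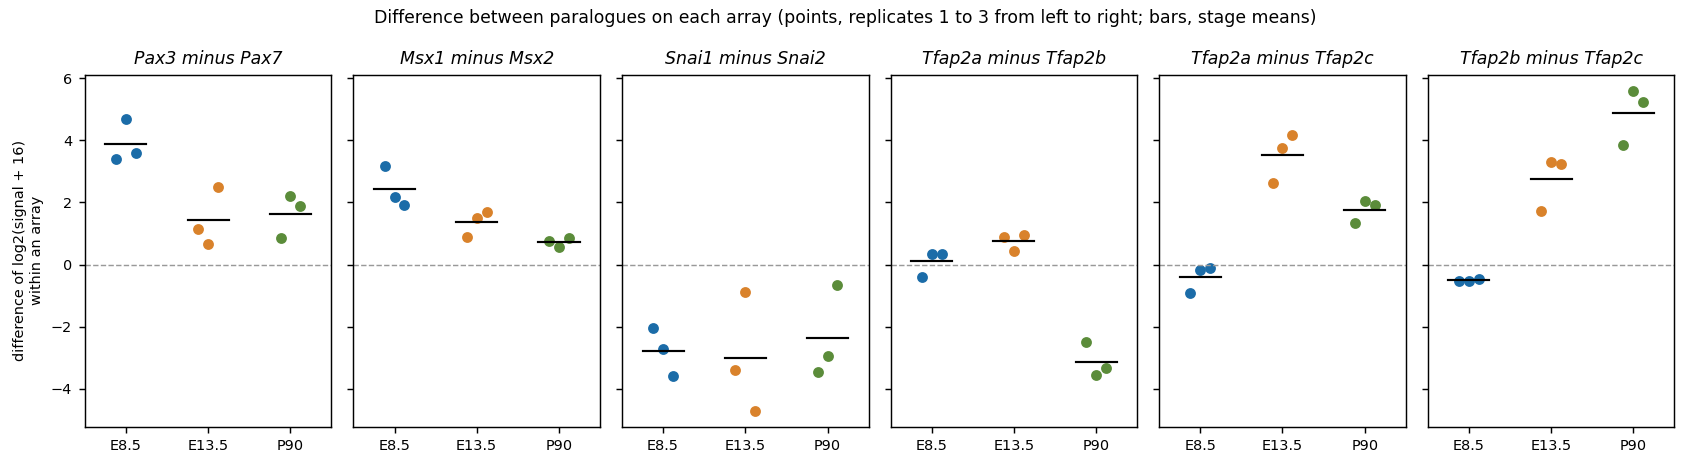
Difference of log2(signal + 16) between the brightest tested probe sets of 6 pairs of paralogues on each array (points, replicates 1 to 3 from left to right) with stage means (bars). Tfap2a minus Tfap2b drops to a mean of -3.13 at P90, and Tfap2b minus Tfap2c climbs from -0.5 at E8.5 to 4.89 at P90.

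Genes most like each factor across the 9 arrays were found by Pearson's r of log2(signal + 16) among 12755 genes without empty values; the points are 9 arrays in 3 stages, and r is a description. Pax3 was closest to Sp8 (0.984), Zic5 (0.981) and Atp2c2 (0.976). Sp8 averaged 279, 8.38 and 8.75 in stage order. Msx1 was closest to Pou3f3 (0.998), Otos (0.989) and Sall3 (0.988), and Msx2 to Hmgn5 (0.971), Ccnk (0.951) and Stxbp6 (0.935). Foxd3 was closest to Vcan (0.975), Zc3hav1l (0.972) and Cdon (0.972); Vcan, an extracellular matrix proteoglycan, averaged 1493, 324 and 106. Tfap2a went with Wnk3 (0.972), Pard6b (0.971) and Asb4 (0.967).

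Tfap2c was closest to Ccnf (0.993), Eme1 (0.991) and Gen1 (0.99). Ccnf encodes a cyclin, and Eme1 and Gen1 encode parts of nucleases that resolve DNA junctions. Ccnf averaged 328, 28.4 and 15.9 at the 3 stages. Tfap2b was closest to Zfp937 (0.962), Galnt3 (0.939) and Slc7a9 (0.933), and Snai2 to Sema3d (0.946), Snx6 (0.937) and Dusp18 (0.927). The nearest genes of Pax7 (Rhd 0.933, Ccr8 0.901, Eaf2 0.894) and of Snai1 (Kis2 0.919, Madcam1 0.895, Eps8l3 0.892) averaged 20.3 to 63.2 at every stage. Among the 10 factors themselves, Tfap2c had an r of 0.935 with Msx1 (rank 245 of 12755 genes), 0.928 with Pax3 (rank 295), 0.858 with Foxd3 (rank 764) and 0.837 with Msx2 (rank 916). Foxd3 had 0.859 with Tfap2a (rank 414). Many genes outside the 10 were thus closer. Tfap2c had 0.668 with Tfap2a, 0.407 with Pax7, 0.119 with Tfap2b, 0.104 with Snai2 and -0.0202 with Snai1. Tfap2a had -0.229 with Tfap2b.

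Other genes of the specification network were read from lists, each gene by its brightest tested probe set. Among 13748 genes so represented, 6.76% fell and 8.82% rose between E8.5 and E13.5, 5.40% and 3.18% between E13.5 and P90, and 11.8% and 10.3% between E8.5 and P90. Of 27 other border and crest specifiers, 19 were tested: 3 fell and 0 rose in the first comparison, 4 and 0 in the second and 10 and 0 between E8.5 and P90, with median log2 changes of -0.66, -0.25 and -1.22 (0.02, -0.05 and 0.0 over all genes). At an unadjusted p under 0.05 in limma 0 of them rose in any of the 3. The TALE homeobox gene Meis1 fell by 2.31 (SE 0.38, limma adjusted p = 0.00221) between E8.5 and E13.5. Zic1, a zinc finger factor of the neural plate border, fell by 5.60 between E13.5 and P90 (SE 0.42, adjusted p = 7.59e-05). Sox10, the factor of migrating crest and glia, read 232 to 315 at E8.5, 394 to 543 at E13.5 and 72.4 to 137 at P90; it fell from E13.5 to P90 (log2 change -2.0 ± 0.34 SE, adjusted p = 0.00511) where Tfap2a also fell.

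Of 15 inducing signals, 9 were tested, and 1 fell in the first comparison, 0 changed in the second and 3 fell between E8.5 and P90 (Wnt1, Jag1 and Wnt6), with 0 rises; at an unadjusted p under 0.05 in limma, 1 fell and 1 rose in the second. Wnt1 fell by 4.54 between E8.5 and E13.5 (SE 0.25, limma adjusted p = 1.59e-05). Of 14 close paralogues of the factors, 7 were tested. Pax6 (log2 change -3.85 ± 0.24 SE, adjusted p = 2.17e-05) and Msx3 fell in the first comparison, Foxd1 in the second (-3.94 ± 0.43 SE with 1 E13.5 array empty, adjusted p = 0.000565), and all 3 of these between E8.5 and P90.

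Of 20 cofactors, such as corepressors and ubiquitin ligase adaptors bound by Snail or AP-2 factors, 19 were tested. Between E8.5 and E13.5 Ajuba, a LIM protein that binds Snail factors, fell by 3.20 (SE 0.72, limma adjusted p = 0.0123) together with Prmt5, and the Groucho corepressor Tle2 rose by 1.59 (SE 0.33, adjusted p = 0.00791). Kctd15, an inhibitor of AP-2 activity, fell by 1.96 between E13.5 and P90 (SE 0.4, adjusted p = 0.0132), a call that ended when replicate 3 of E13.5 or of P90 was left out (adjusted p up to 0.0733). Between E8.5 and P90, 6 cofactors fell and 1 rose.

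All 20 listed genes of the epithelial to mesenchymal transition were tested: 1 fell and 4 rose between E8.5 and E13.5, 6 fell and 1 rose between E13.5 and P90, and 4 fell and 0 rose between E8.5 and P90 (2 rose there at an unadjusted p under 0.05). The integrin Itga4 rose by 3.18 in the first comparison (SE 0.43, limma adjusted p = 0.000755). The epithelial adhesion gene Epcam fell by 2.15 there (SE 0.63, adjusted p = 0.0419), a call lost when any of 7 arrays was left out (all of E13.5, E8.5 and P90 replicates 2 and 3; adjusted p up to 0.164). Cdh1, encoding E-cadherin and repressed by Snail factors, fell by 4.04 between E13.5 and P90 (SE 0.89 with 1 array empty, adjusted p = 0.0221), and this ended without P90 replicate 2 or 3, or without E13.5 replicate 3 (adjusted p up to 0.189). The tight junction gene Ocln rose by 1.46 there (SE 0.33, adjusted p = 0.0214), which ended when replicate 3 of E13.5 or of P90 was left out (adjusted p up to 0.0645). Fn1, fibronectin, fell by 3.84 between E8.5 and P90 (SE 0.64, adjusted p = 0.00179).

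Of 18 lineage genes known as direct or later targets of these factors, 10 were tested; 2 fell and 0 rose in the first comparison (2 rose at an unadjusted p under 0.05), 1 fell and 1 rose in the second, and 3 fell and 2 rose between E8.5 and P90. Neurog2, a determinant of sensory neurons, fell by 4.13 between E8.5 and E13.5 (SE 0.53, limma adjusted p = 0.000625). The receptor gene Kit fell by 3.55 between E13.5 and P90 (SE 0.52, adjusted p = 0.00213), and Mitf, the melanocyte factor that Pax3 acts on, rose by 1.84 (SE 0.32, adjusted p = 0.0057). Phox2a, a factor of sympathetic and chromaffin cells, was 2.37 higher on the log2 scale at P90 than at E8.5 (SE 0.53, adjusted p = 0.00962).

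**Figure D5:**
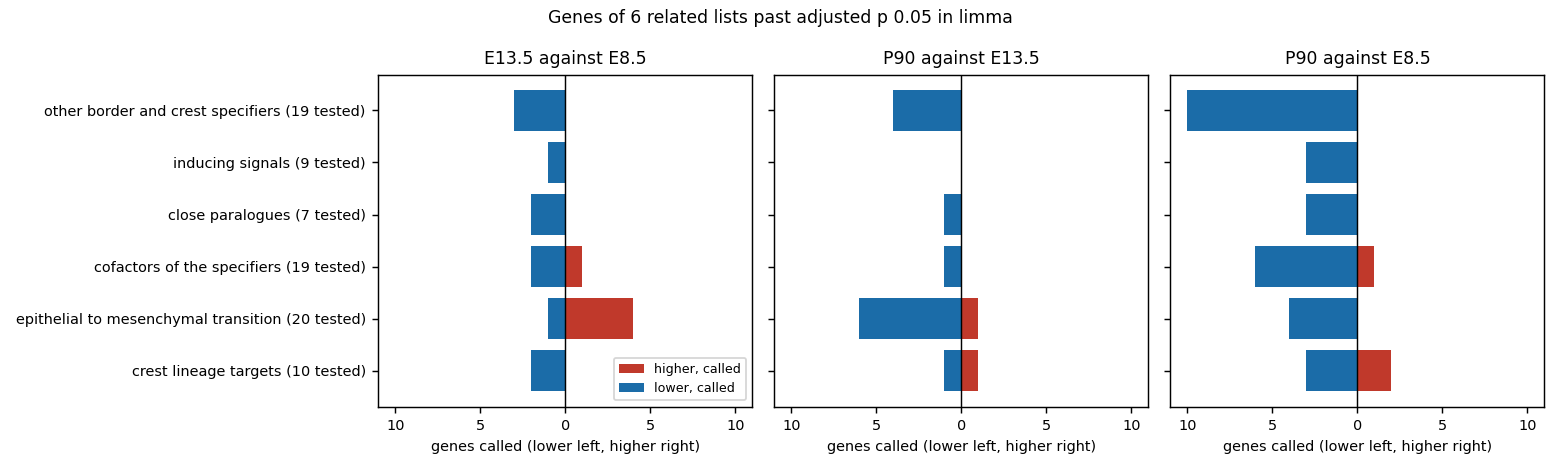
Genes of 6 lists around the 10 factors that fell (left of 0) or rose (right of 0) in each comparison of stages, each by its brightest tested probe set, at a limma adjusted p under 0.05. Among the other border and crest specifiers 3, 4 and 10 of 19 fell and 0 rose in the 3 comparisons.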

How the data were processed

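The values deposited by the authors are intensities, 1 for each probe set on each array; they are linear and none is below 1. Per the submitters' processing notes, MAS5, GCOS, RMA and GCRMA were named without role or version; which one made the authors' values, and how they were scaled, is not given in the sources used here. Per the labels' protocols, 400 ng of total RNA was used for labelling. The table has 405909 cells, and 8048 of them (1.98%) hold no value; why is not stated. Among 45101 probe sets, 34945 had 1 gene symbol, 932 several and 9160 none, and 64 were controls; those with 1 symbol were used.

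Values were taken as log2(signal + 16) without further scaling. Probe sets above a signal of 26.1 (the 40th percentile) on at least 3 arrays, with 2 values per stage, were fitted in 1 limma model of 9 arrays (limma 3.58.1, R 4.3.3; variance trend, 6 residual degrees of freedom), adjusted by Benjamini-Hochberg over 24013 probe sets. Fold changes are ratios of signal + 16 from this fit. Paralogues were compared by exact permutation (SciPy 1.17.1). Few arrays limit precision. The 10 genes, lists and tests were chosen with earlier results of these data known. All probe sets of the 10 genes are described; beyond them, the text names the 3 genes most like each factor, the called gene with the largest rise and fall of each list and comparison, and defining markers of the captured and neighbouring tissues; other list members are named without values. Alternatives changed scaling, pseudocount (1 and 64), filter, variance model, arrays, probe set choice, replicate block and an Actb covariate.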

Additional observations from a re-analysis of the deposited data

How the results depend on the processing

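Over 24 alternatives, calls for Pax3 1420389_at, Msx1 1448601_s_at and Tfap2c 1436392_s_at against E8.5, for Msx2 1449559_at at E13.5 and for Foxd3 1422210_at, Tfap2a 1421996_at and Tfap2a 1426048_s_at at P90 against E8.5 held in every alternative that tested them. The count of called probe sets of the factors at E13.5 against E8.5 was 7 and became 12 (25.4% of all tested) without the 3 arrays that stand apart, an omission chosen after the data were seen. At P90 against E13.5 the count of 2 became 1 with a pseudocount of 64 (7.35% of all tested) and with no filter on level (4.62%). It was also 1 with the brightest probe set per gene and without _x_at and _s_at probe sets, but these settings leave out the called 1426048_s_at itself. The count became 5 with the Actb covariate (3065 called of all 24013 tested, against 1795) and 7 without the 3 arrays (27.8% of all tested). At P90 against E8.5 the count of 6 became 3 of 14 without _x_at and _s_at probe sets (19.8% of all then tested). That setting leaves out the called 1426048_s_at, 1436392_s_at and 1448601_s_at themselves, and the other calls held. Without the 3 arrays the count was 11 (36.2% of all tested), and that of any stage difference went from 9 to 15 (45.8%). Leaving out 1 array gave 4 to 8, 0 to 4, 6 to 7 and 6 to 11 calls in these 4 tests. Of all tested probe sets, 8.16% to 17.8%, 3.46% to 10.6%, 12.7% to 26.2% and 14.4% to 29.3% were then called. The lowest count of the first came without replicate 2 or 3 of E8.5 or replicate 1 or 3 of E13.5 (8.16%, 9.17%, 14.1% and 9.25% of all tested). The 0 of the second came without replicate 3 of E13.5 (3.46%). Paralogue pairs stayed at 4 to 5 of 6 and pairs of probe sets of one gene at 0 to 5 of 8. Without the 3 arrays both were 0, since 6 arrays cannot reach the threshold; the pairs of one gene were also 0 with a pseudocount of 1 and after quantile normalization. Tfap2b 1423340_at at P90 against E8.5 reversed from -0.01 to 1.24 without P90 replicate 1 (range over single omissions -0.75 to 1.24) and to 1.25 without the 3 arrays. The cause of the other changes was not tested. Same-numbered samples did not deviate together throughout (correlations from -0.357 to 0.424, with both signs in each comparison), and the numbers were not taken as pairs. The highest were between E13.5 and P90, at 0.424 for replicate 1 and 0.231 for replicate 2 (-0.169 for replicate 3). With a replicate block the counts were 7, 4, 6 and 10, against 14.1%, 6.60%, 20.5% and 22.1% of all tested. The 4 were 2 probe sets of Tfap2a that fell and both of Tfap2b, which rose.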
